A study of Rattus norvegicus with 16 samples.

Results

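The oxidative phosphorylation subunit genes are the nuclear genes for the proteins of the 5 complexes that carry electrons along the inner mitochondrial membrane and make ATP. Members were all genes of the RefSeq rat gene table (assembly GRCr8) whose symbol starts with Nduf and then a, b, c, s or v with a digit (complex I), is Sdha, Sdhb, Sdhc or Sdhd (complex II), or starts with Uqcr (complex III), with Cox and a digit from 4 to 8 (complex IV), or with Atp5 (complex V). The rule used symbols and no measured value. It matched 209 genes, of which 109 are protein coding and 100 are not. A probe was named for 76 of them, and 75 were well above background and tested, out of 11849 genes tested in the series. These 75 are 32 genes of complex I, 4 of complex II, 8 of complex III, 16 of complex IV and 15 of complex V. The exception was Cox8c, an isoform typical of testis, which was not well above background on all arrays of any group. Of the 34 protein coding members without a named probe, 21 carry symbols formed from another member's, such as Ndufb4l3, and the rest include Ndufs6, Ndufa13, Atp5mc3, Cox7a1 and Ndufa4l2, which are not analysed here. The tested member Cox6c-ps1 is listed as a pseudogene, and its probes may also bind Cox6c transcripts.

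Complex I (NADH dehydrogenase) and complex II (succinate dehydrogenase, which is also an enzyme of the citric acid cycle) pass electrons to ubiquinone, complex III passes them to cytochrome c, and complex IV (cytochrome c oxidase) passes them to oxygen. Complexes I, III and IV pump protons, and complex V (ATP synthase) lets the protons flow back to make ATP. The thick ascending limbs and straight proximal tubules of the outer medulla are rich in mitochondria, since salt transport there uses much ATP in a zone of low oxygen tension. Some nitrophenols act as uncouplers, which carry protons across the membrane without ATP synthesis. Uncoupling was not measured in these samples.

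The tissue was the outer medulla of the kidney of male Crl:CD Sprague-Dawley rats aged 5 weeks when dosing began, and bulk RNA was hybridised to 16 one-colour Agilent arrays. Treated rats received 2-amino-4-nitrophenol (ANP), dissolved in corn oil, by gavage at 750 mg/kg/day, and vehicle rats received corn oil. For days 1 and 7, RNA of 3 animals was mixed and put on 1 array for each group, so these days have no replicates and no test. At days 14 and 28 there were 3 arrays per group, each from a separate animal, and ANP was set against vehicle of the same day. Levels below are log2 of the spot signal over the array's 75th percentile, and log2 ratios are ANP minus vehicle. All 75 members except Cox5b were well above background on all 12 arrays of days 14 and 28, so the filter on dim probes did not pick members by group. Cox5b lacked 1 vehicle array of day 14, where its spot was marked as an outlier, and its values come from the other 11 arrays. In bulk RNA, fewer cells of a type and less RNA per cell cannot be told apart.

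Across arrays, 64.75% to 69.6% of probes were well above background, and the 75th percentile of the signal was 810 to 1324. Precision is limited by how few arrays there are. The 3 ANP arrays of day 28 lay on a slide of their own with a scan day of their own, so at day 28 slide, scan and treatment cannot be told apart. At day 14 the vehicle arrays shared a slide with ANP replicate 1, while ANP replicates 2 and 3 lay on the slide of the day 28 vehicle arrays. The tissue label was checked with marker lists. All 15 tested markers of the thick ascending limb and all 10 of the straight proximal tubule were well above background on all 12 arrays, but so were all 15 of the convoluted proximal tubule, which lies in the cortex, and 7 of 8 of the glomerulus.

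Few of these genes passed the test of ANP against vehicle. A lack of calls is not a lack of change here. On simulated data, 34% of log2 changes of 0.5 were recovered for day 14 and 22% for day 28. At day 14 no member passed the test (limma with Benjamini-Hochberg adjustment over 11849 genes, adjusted p under 0.05), against 0.363% of all genes higher and 0.118% lower. An unadjusted p under 0.05 was found for 2 of 75 members, against 1588 of 11849 genes. At day 28 only Atp5if1, the gene of the ATP synthase inhibitory factor, rose, which is 1 of 75 against 4.49% of all genes higher. No member was lower at day 28, against 2.69% of all genes lower. There, 15 of 75 members, all above 0, had an unadjusted p under 0.05, against 3124 of 11849 genes, of which 1800 were above 0. Averaged over days 14 and 28, Atp5if1 and Cox8b, a cytochrome c oxidase isoform of brown fat and striated muscle, were higher, which is 2 of 75 against 6.14% of all genes. No member was lower on average, against 4.08% of all genes. The members' share of calls was therefore below the background share in the day 28 and averaged comparisons. At day 28 this order turned with array weights (13 of 75 members, 17.3%, against 12.8% of all genes) and after normexp and quantile normalization (6 of 75, 8.0%, against 5.69%), and for the average it turned without ANP replicate 3 of day 28 (5 of 75, 6.67%, against 6.03%). The difference of the ANP effect between the days passed for no member and for 0% of all genes. For this difference 1 of 75 members had an unadjusted p under 0.05, against 1098 of 11849 genes.

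The sizes were small as well. The median log2 ratio over the 75 members was 0.04 at day 14, with 47 above 0 and 28 below, beside a median of 0.01 over all genes. At day 28 it was 0.16, with 65 above 0 and 10 below, beside 0.02 over all genes. The SE of a member's log2 ratio had a median of 0.118 and ran from 0.087 to 0.311, and the smallest size called at day 28 over all genes was 0.24, so that the typical member's ratio at day 28 was of the size of its own error. All 3 ANP arrays lay above all 3 vehicle arrays of day 28 for 19 of 75 members, a larger share than the 18.6% of all genes (2207 of 11849). All lay below for 0 of 75 members, against 14.2%. The same counts at day 14 were 2 of 75 above, against 10.3% of all genes, and 1 of 75 below, against 7.92%. The 2 were Atp5if1 and Cox5b, the latter against 2 vehicle arrays, and the 1 was Ndufa4.

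**Figure D1:**
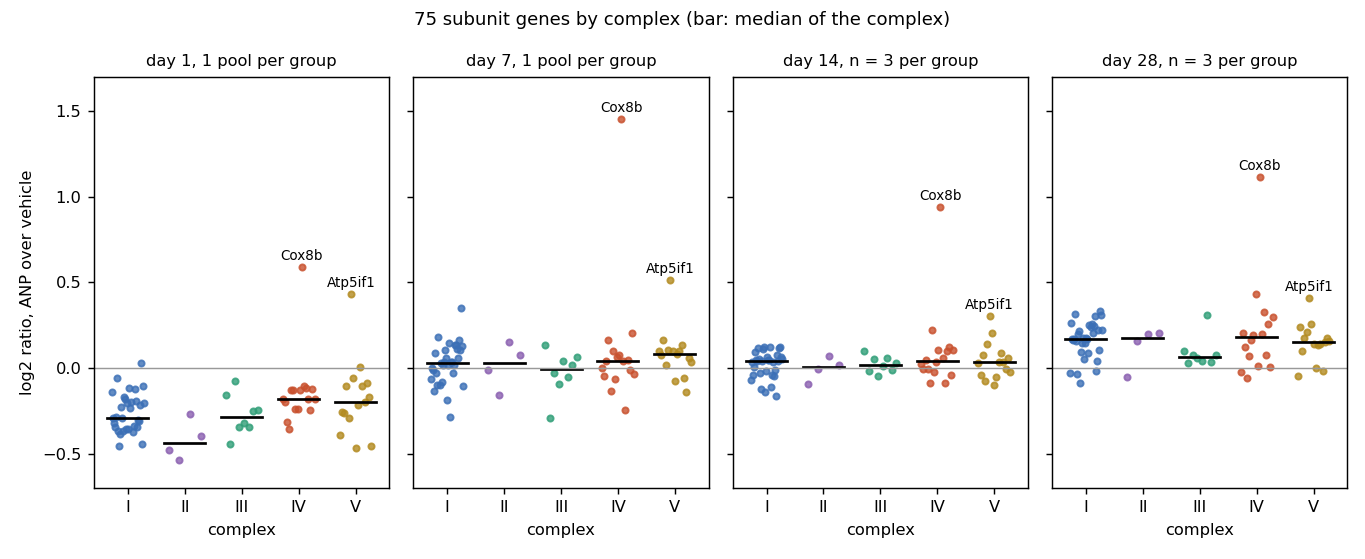
Log2 ratio of ANP over vehicle (vertical axis) for each of the 75 members by complex (horizontal axis) at days 1, 7, 14 and 28, where each point is a gene and each bar the median of a complex. Cox8b and Atp5if1 stand highest in complexes IV and V on all 4 days, while the medians lie below 0 at day 1 and above 0 at day 28.

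Complex I starts the chain by oxidising NADH. Its 32 members had median log2 ratios of -0.29 at day 1, 0.03 at day 7, 0.04 at day 14 and 0.17 at day 28, and none passed the test. The 7 measured core subunits, which hold the flavin and the iron-sulphur clusters, had a median of 0.17 at day 28, and the other 25 members also had 0.17. By the probe used for each gene, the largest size at day 28 was that of Ndufs7, a core subunit with an iron-sulphur cluster. Its levels were 5.97, 5.96 and 5.93 in vehicle replicates 1 to 3 and 6.44, 6.26 and 6.15 in ANP replicates 1 to 3. The groups did not overlap, but the log2 ratio of 0.33 ± 0.11 (SE, n = 3 per group) did not pass (limma adjusted p = 0.0865). A second Ndufs7 probe gave 0.08 at day 28, so the size depends on the probe.

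Other core subunits of complex I were closer to 0. Ndufv1, which binds NADH and flavin, had a log2 ratio of 0.10 at day 28, and Ndufs1, the largest core subunit, 0.04. At day 14 the lowest members of the complex were Ndufv3 at -0.16 and Ndufa10l1 at -0.14, and the lowest member at day 28 was Ndufa4 at -0.09. The rule places Ndufa4 in complex I by its symbol, although its protein is now counted as a subunit of cytochrome c oxidase. Its day 28 levels were 7.04, 7.03 and 6.95 with vehicle and 7.20, 6.92 and 6.64 with ANP, so that the ANP arrays lay on both sides of the vehicle arrays.

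Complex II oxidises succinate and pumps no protons. Its 4 members, all nuclear, had a median log2 ratio of -0.44 at day 1, the lowest of the 5 complexes, then 0.03 at day 7, 0.01 at day 14 and 0.18 at day 28. In the day 1 pools Sdhd, a membrane anchor, was at 6.09 with vehicle and 5.55 with ANP, a log2 ratio of -0.54. This was the lowest of all 75 members by the probe used for each. Sdha, the flavoprotein, was at 6.75 and 6.27 there, a ratio of -0.48. Sdhb, the iron-sulphur subunit, stood at -0.40 and Sdhc, the other anchor, at -0.27, so all 4 were lower in the ANP pool. At day 28 Sdha was at 7.05, 6.94 and 6.96 with vehicle and 7.04, 6.98 and 6.77 with ANP. These groups overlapped, with a ratio of -0.05 ± 0.10 (limma adjusted p = 0.771). Sdhb was at 0.21 ± 0.12 (limma adjusted p = 0.313).

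Complex III had the smallest shift at day 28. Its 8 members had medians of -0.29, -0.00, 0.02 and 0.07 at days 1, 7, 14 and 28, with all 8 below 0 at day 1 and all 8 above 0 at day 28. Uqcrc1, a core protein, had day 28 levels of 4.99, 5.10 and 5.01 with vehicle and 5.60, 5.28 and 5.15 with ANP, which did not overlap (log2 ratio 0.31 ± 0.11, limma adjusted p = 0.109). Its partner Uqcrc2 was at 0.04 and Uqcrfs1, the Rieske iron-sulphur protein, at 0.06. Uqcrc1 had the largest ratio of the 8, and its difference from the others was not tested.

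Complex IV holds several isoform pairs. Its 16 members had medians of -0.18, 0.04, 0.04 and 0.18 at days 1, 7, 14 and 28. The common isoforms did not pass in any comparison. Cox4i1 was at 0.02 at day 14 and -0.02 at day 28, Cox5a at -0.04 and 0.00, Cox6a1 at 0.10 and 0.08, Cox7a2 at -0.02 and 0.19, and Cox8a at 0.05 and 0.12. Among tissue-specific or inducible isoforms, Cox6a2, typical of heart and skeletal muscle, was at -0.01 and -0.06, and Cox6b2, typical of testis, at -0.01 and 0.20. Cox7a2l, which binds complexes III and IV together, was at 0.12 and 0.26 (limma adjusted p = 0.596 and 0.0984).

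Cox4i2, the isoform of Cox4 that rises under low oxygen in some cells, had day 28 levels of 2.14, 2.23 and 2.26 with vehicle and 2.92, 2.65 and 2.35 with ANP. The groups did not overlap, but ANP replicate 3 was close to the vehicle arrays, and the log2 ratio of 0.43 ± 0.14 did not pass (limma adjusted p = 0.0833). A second probe of Cox4i2 gave -0.01. Its levels at day 14 were 2.34, 2.14 and 2.11 with vehicle and 2.39, 2.12 and 2.19 with ANP, and these overlapped. Cox7c, a small structural subunit, had the smallest p of the set for a difference between the days, with a ratio of -0.09 at day 14 and 0.33 at day 28 (interaction 0.42 ± 0.16, limma adjusted p = 0.493).

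Cox8b was the member with the largest ratio on all 4 days. In the pools its level was -0.92 with vehicle and -0.33 with ANP at day 1, and -0.91 with vehicle and 0.54 with ANP at day 7, which are 1.5-fold and 2.74-fold more with ANP. At day 14 the vehicle arrays were at -0.11, -0.82 and -1.23 and the ANP arrays at 0.20, -0.38 and 0.84. Vehicle replicate 1 was above ANP replicate 2, so the groups overlapped, and the log2 ratio of 0.94 ± 0.31 did not pass (limma adjusted p = 0.224). At day 28 the vehicle arrays were at -0.98, -0.81 and -0.73 and the ANP arrays at 0.13, 0.38 and 0.30. All 3 ANP arrays were above all 3 vehicle arrays of the day, with a gap wider than the range within either group. The day 28 ratio of 1.11 ± 0.31 (2.16-fold) did not pass (limma adjusted p = 0.0572). It passed in 5 of 18 alternatives, among them the spread taken from the 6 arrays of that day alone (limma adjusted p = 0.0211). It did not pass in 13, among them quantile normalization (limma adjusted p = 0.0609) and every fit without 1 array of the day (0.0926 to 0.156). The average of both days, 1.03 ± 0.22 (2.04-fold), passed (limma adjusted p = 0.0192). The other Cox8b probe gave 0.71, 1.48, 0.95 and 1.07 at days 1, 7, 14 and 28, the same direction as the probe used. Cox8a, the common isoform of the same subunit, was at -0.32, 0.04, 0.05 and 0.12 on these days.

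Complex V makes ATP. Its 15 members had medians of -0.20, 0.08, 0.03 and 0.15 at days 1, 7, 14 and 28. At day 1 the 5 genes of the F1 head had a median of -0.39, the 2 measured c subunit genes of the rotor -0.19 and the 4 genes of the peripheral stalk -0.24. Atp5f1b, the catalytic beta subunit, was at 5.82 with vehicle and 5.35 with ANP in the day 1 pools, a ratio of -0.47, and Atp5f1a, the alpha subunit, at 8.48 and 8.09, a ratio of -0.39. At day 28 Atp5f1a was at 8.77, 8.75 and 8.75 with vehicle and 8.84, 8.75 and 8.54 with ANP. These groups overlapped, with a ratio of -0.05 ± 0.10 (limma adjusted p = 0.811). Atp5mc1 and Atp5mc2 were at 0.15 and 0.21 at day 28, and neither passed.

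Atp5if1 encodes a small protein that binds the F1 head and stops it from splitting ATP when the proton gradient collapses. It regulates the enzyme and is not a structural subunit, but its symbol meets the rule. The pools were at 5.73 with vehicle and 6.16 with ANP at day 1, and at 5.76 and 6.27 at day 7. At day 14 the vehicle arrays were at 5.90, 5.83 and 5.64 (mean 5.79 ± 0.13, SD, n = 3) and the ANP arrays at 6.12, 6.05 and 6.11 (6.09 ± 0.04). At day 28 the vehicle arrays were at 6.11, 6.15 and 6.02 (6.09 ± 0.06) and the ANP arrays at 6.48, 6.60 and 6.42 (6.50 ± 0.09). All ANP arrays were above all vehicle arrays of the same day, and ANP of day 14 lay at the level of vehicle of day 28. The log2 ratios were 0.43, 0.51, 0.30 and 0.41 at days 1, 7, 14 and 28. The ratio of day 14 did not pass (limma adjusted p = 0.176), that of day 28 did (0.41 ± 0.09, SE, n = 3 per group, 1.33-fold, limma adjusted p = 0.0249), and so did the average (0.35 ± 0.06, 1.28-fold, limma adjusted p = 0.00825). The day 28 call was lost without any 1 of the 3 vehicle arrays (limma adjusted p of 0.0758, 0.0704 and 0.0711 without replicates 1, 2 and 3) and without ANP replicate 2 (0.0831), while the averaged call held in all 23 alternatives. The ratio of day 28 was 0.42 without ANP replicate 1.

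**Figure D2:**
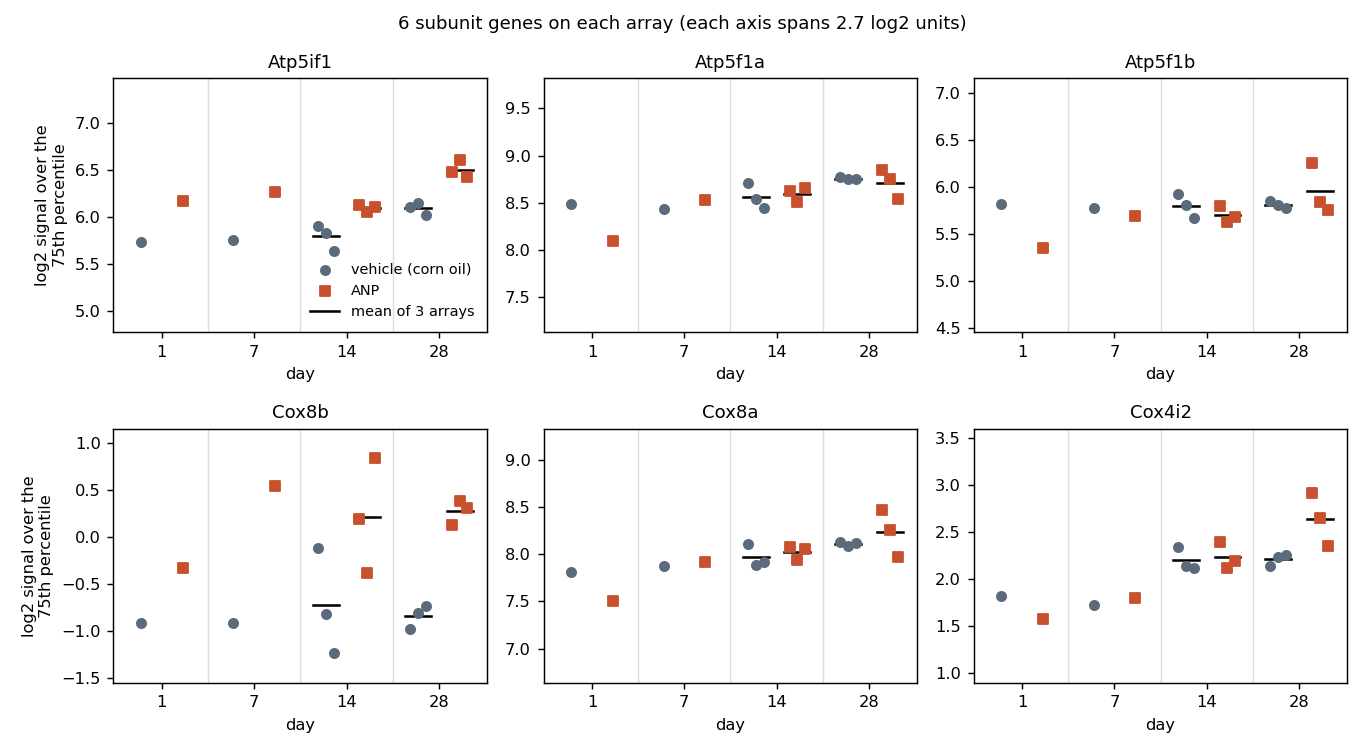
Level on each array (vertical axis, log2 of signal over the array's 75th percentile) of 6 members by day and group, with circles for vehicle, squares for ANP and lines for means of 3 arrays; all axes span the same number of log2 units, and levels are not comparable between genes. In Atp5if1 all squares lie above the circles of the same day, in Cox8b they overlap at day 14, and in Cox8a, Atp5f1a and Atp5f1b the groups overlap at days 14 and 28.

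The promoter windows of Atp5if1 and Cox8b are shown because these are the members that passed, with that of Cox8a as the common isoform of the same subunit. Each runs from 250 bases before to 50 after the annotated start, 5′ to 3′ on the gene's strand (RefSeq, assembly GRCr8, all minus strand), and lies at chr5:150026628-150026927 for Atp5if1, chr1:205408224-205408523 for Cox8b and chr1:213833574-213833873 for Cox8a. Capitals mark matches to the ETS core named below.
Atp5if1: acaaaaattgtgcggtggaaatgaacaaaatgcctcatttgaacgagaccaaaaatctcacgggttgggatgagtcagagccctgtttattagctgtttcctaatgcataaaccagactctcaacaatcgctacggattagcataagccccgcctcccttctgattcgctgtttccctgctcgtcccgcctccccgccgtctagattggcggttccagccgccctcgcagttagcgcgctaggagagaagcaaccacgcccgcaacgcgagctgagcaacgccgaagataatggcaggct
Cox8b: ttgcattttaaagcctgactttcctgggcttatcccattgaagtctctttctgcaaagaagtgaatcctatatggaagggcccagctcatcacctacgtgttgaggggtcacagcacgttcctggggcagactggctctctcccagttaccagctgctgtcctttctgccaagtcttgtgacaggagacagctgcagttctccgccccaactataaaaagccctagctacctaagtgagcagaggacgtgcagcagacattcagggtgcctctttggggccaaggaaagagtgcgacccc
Cox8a: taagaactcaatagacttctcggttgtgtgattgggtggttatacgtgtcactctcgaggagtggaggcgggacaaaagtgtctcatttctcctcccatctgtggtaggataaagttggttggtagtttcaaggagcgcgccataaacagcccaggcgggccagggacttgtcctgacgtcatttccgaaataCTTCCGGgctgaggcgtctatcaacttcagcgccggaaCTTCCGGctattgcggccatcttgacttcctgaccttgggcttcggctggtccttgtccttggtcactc
Many nuclear genes of the respiratory chain carry sites for NRF1, for ETS factors such as GABPA, or for YY1. The cores GCGCATG (NRF1), CCGGAAG (ETS) and ATGGCGG (YY1) were searched on both strands, and a window was counted for each core it held, also where matches of different cores overlapped. A window was matched for 65 of the 75 members. Of these 65, 16.9% held the NRF1 core, 30.8% the ETS core and 21.5% the YY1 core, against 6.05%, 16.1% and 8.63% of 9672 tested genes and 3.94%, 9.22% and 5.22% of all 27457 windows of the table. At least 1 of the cores was in 47.7% of the members' windows, against 26.9% and 16.3%. The median GC content was 56.3% in the members, 59.7% in the tested genes and 52.3% in the table. The windows of Atp5if1 and Cox8b held none of the cores, and that of Cox8a held the ETS core at 2 places. These are matches of letters in short windows, were not tested, and say nothing of binding.

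The set as a whole was not shifted evenly among the animals of day 28. With each gene centred on its mean over the 12 arrays, the median over the 75 members was 0.01, 0.05 and 0.01 on the vehicle arrays and 0.40, 0.15 and -0.02 on ANP replicates 1, 2 and 3. ANP replicate 1 was high, replicate 2 was above the vehicle arrays, and replicate 3 was below them. The SD of this median was 0.21 among the ANP arrays and 0.02 among the vehicle arrays. Of the 75 members, 69 had their highest day 28 level on ANP replicate 1, against 33.5% of all genes, 4 on ANP replicate 2 and 0 on ANP replicate 3. All 5 complexes followed the same order, with medians of 0.41, 0.43, 0.34, 0.39 and 0.37 for complexes I to V on ANP replicate 1 and -0.01, -0.00, -0.09, -0.01 and -0.02 on ANP replicate 3. Without ANP replicate 1 the median log2 ratio of the members at day 28 fell from 0.16 to 0.04, and without replicate 3 it was 0.27. It also depended on scaling, with 0.04 after quantile normalization and 0.22 after scaling to the array median, and stayed above 0 in all 18 alternatives. On ANP replicate 1 the median of all genes tested was 0.08 and the share of probes well above background 66.5%, against 0.03 and -0.01, and 68.6% and 68.8%, on replicates 2 and 3. The mean of the straight proximal tubule markers was 0.45 on replicate 1 and -0.00 and -0.04 on replicates 2 and 3. The part of these measures in the shift was not tested.

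**Figure D3:**
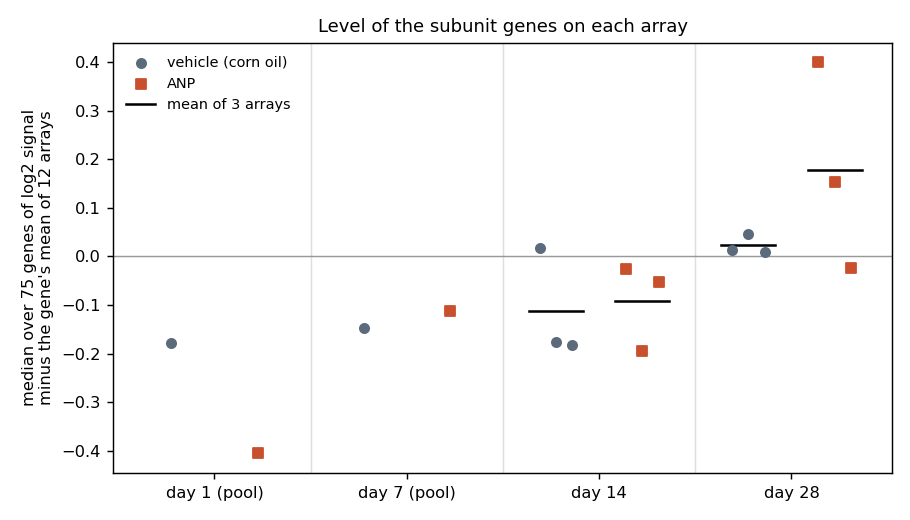
Median over the 75 members of the log2 signal, each gene centred on its mean over the 12 arrays of days 14 and 28 (vertical axis), on each array by day and group, with lines for means of 3 arrays. The ANP pool of day 1 is lowest and ANP replicate 1 of day 28 highest at 0.40, while the vehicle arrays of day 28 lie within 0.01 to 0.05.

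At day 14 the 3 ANP arrays and the 3 vehicle arrays overlapped. The centred medians were 0.02, -0.18 and -0.18 with vehicle and -0.03, -0.20 and -0.05 with ANP, so that vehicle replicate 1 was the highest array and ANP replicate 2 the lowest. Within the slide that held vehicle and ANP arrays of this day, ANP replicate 1 was 0.09 above the vehicle mean for the median member, 0.33 for Atp5if1 and 0.92 for Cox8b. The median log2 ratio of day 14 was 0.10 without vehicle replicate 1 and 0.09 without ANP replicate 2, while it was between 0.00 and 0.01 without any 1 of the other 4 arrays of the day.

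In the day 1 pools most members were lower with ANP. Of 75 members 71 were below 0, with a median log2 ratio of -0.24, beside 54.0% below 0 and a median of -0.04 over 12413 genes. By the probe used for each gene, 1 member was past 1.5-fold higher, Cox8b, against 10.9% of all genes, and 0 members lower, against 12.3%. The shift was thus broad and shallow by these probes, with the lowest member, Sdhd, at -0.54. Other probes gave lower values for Ndufs7 (-0.68), Atp5f1a (-0.60) and Ndufv1 (-0.56), and a higher one for Cox6b2 (0.65). The 4 members above 0 were Cox8b, Atp5if1, Ndufa12 at 0.03 and Atp5pd at 0.01. The median stayed between -0.25 and -0.19 in all 6 alternatives. In the same pools the markers of the straight proximal tubule, a segment rich in mitochondria, had a median of -0.69 with 8 of 10 below 0, and 14 of 15 convoluted proximal tubule markers were below 0 (median -0.44), while the thick ascending limb markers stood at -0.14. The part of these cell types in the members' shift was not tested, and 1 array per group leaves no measure of the spread.

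At day 7 the members were spread around 0. Their median was 0.04, with 48 above 0 and 27 below, and the median of all 12122 genes was also 0.04. By the probe used for each gene, only Cox8b was again past 1.5-fold higher, against 5.3% of all genes, and 0 members lower, against 6.81%. A second probe of Cox6b2 gave -1.07, against -0.05 by the probe used. The lowest were Ndufv2, a core subunit of complex I, at -0.29, Uqcrq of complex III at -0.29 and Cox7c at -0.25, and the highest below Cox8b were Atp5if1 at 0.51 and Ndufs7 at 0.35. The direction of this median depended on scaling, since it was -0.08 after quantile normalization and -0.07 after normexp and quantile normalization.

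Few members kept 1 direction over the 4 days. Cox8b, Atp5if1, Ndufa12 and Atp5pd were above 0 in all 4 comparisons, 4 of 75 beside 14.4% of 11743 genes, and Sdha, Ndufa4 and Ndufa1 were below 0 in all 4, 3 of 75 beside 10.8%. Atp5pd, a stalk subunit of ATP synthase, and Ndufa1 are named after their values were seen. Of the 75, 61 were below 0 at day 1 and above 0 at day 28, beside 26.7% of all genes. By the probe used for each gene, Cox8b was the only member that reached 1.5-fold in any of the 4 comparisons. Past 1.5-fold by another probe were Cox6b2 (0.65 at day 1, -1.07 at day 7), Ndufs7 (-0.68 at day 1) and Atp5f1a (-0.60 at day 1). So was Ndufc2 of complex I, named after its value was seen (0.78 at day 28 by another probe, 0.25 by the probe used).

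The vehicle groups of days 14 and 28 differed as well. Members were higher in vehicle of day 28 than in vehicle of day 14 by a median log2 difference of 0.13, with 68 of 75 above 0, beside a median of 0.01 over all genes. No member passed in either direction, against 6.99% of all genes higher and 4.16% lower (limma, Benjamini-Hochberg). An unadjusted p under 0.05 was found for 12 of 75 members, against 3107 of 11849 genes. The largest differences were those of Ndufa1 at 0.43, Cox5b at 0.38 and Atp5mk, a small membrane subunit of ATP synthase named after its value was seen, at 0.32, and Atp5if1 was at 0.30 (limma adjusted p = 0.0503). Sdha was at 0.30 (limma adjusted p = 0.0752). These groups differ in age and lie on separate slides. They also differ in cell type markers. Of 15 convoluted proximal tubule markers 9 were higher in vehicle of day 28 and 0 lower, and of 8 glomerular markers 6 were higher and 0 lower. Of 15 thick ascending limb markers 0 were higher and 5 lower. The part of these cell types in the members' difference was not tested. With slide as a fixed block 0 members and 0 of 11849 genes were higher. That fit links the slides of the vehicle groups only through the 3 ANP arrays of day 14, so its lack of calls cannot decide the part of slide. With slide as a random block, where the estimated correlation within slides was -0.089, 4 of 75 members (5.33%) were higher, against 10.6% of all genes. The comparison shares the day 28 vehicle arrays with that of ANP at day 28, whose median was 0.16.

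The assembly factors, which build the complexes, were measured for 50 genes, and 5 (10%) rose and 0 fell at day 28, with a median log2 ratio of 0.16, while 9 (18%) rose on average over both days. The shares of all genes higher were 4.49% and 6.14%. Coa8 rose 1.43-fold at day 28 (0.51 ± 0.08, limma adjusted p = 0.0109), Cox19, a copper delivery factor, 1.48-fold, Cox20 1.38-fold, Cox11 1.33-fold and Ndufaf8, a complex I factor named after its value was seen, 1.32-fold. Of 69 genes of the mitochondrial ribosome, which translates the subunits encoded in mitochondrial DNA, 6 (8.7%) rose at day 28 and 11 (15.9%) on average, with medians of 0.18 and 0.12, and none fell. Mrps18b rose 1.5-fold and Mrpl51 1.41-fold at day 28. No probe was named for the 13 mitochondrially encoded subunits.

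The other mitochondrial lists are small, so that each call is a large share of its list, to be read beside 4.49% of all genes higher at day 28 and 6.14% on average. Of 16 citric acid cycle genes none passed at day 28 and 2 (12.5%) rose on average, among them citrate synthase (Cs) by 0.20. Of 14 genes of cytochrome c and ubiquinone synthesis none passed, and cytochrome c itself (Cycs) was at -0.40 in the day 1 pools and 0.04 at day 28. Among 7 carriers that exchange ATP and phosphate, Ckmt1, a mitochondrial creatine kinase, was the 1 gene that rose on average (14.3%), and the ADP/ATP carrier genes Slc25a4 and Slc25a5 were at 0.01 and 0.26 at day 28 without passing. Of 21 regulators of mitochondrial gene expression, Perm1 and Polg2, a subunit of the mitochondrial DNA polymerase, rose on average (9.52%). The coactivator Ppargc1a was at -0.07 at day 28, Nrf1 at -0.09, Gabpa at -0.28 and Tfam at 0.25, and none of these passed. The mitochondrial stress response list had 4 of 17 genes rising at day 28 (23.5%) and 5 on average (29.4%), the largest shares of the mitochondrial lists. These were Atf5 (5.13-fold, 2.36 ± 0.36, limma adjusted p = 0.00871), Gdf15 (1.76-fold), Atf4 (1.72-fold) and Ddit3 (1.60-fold), which also respond to stress outside mitochondria.

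**Figure D4:**
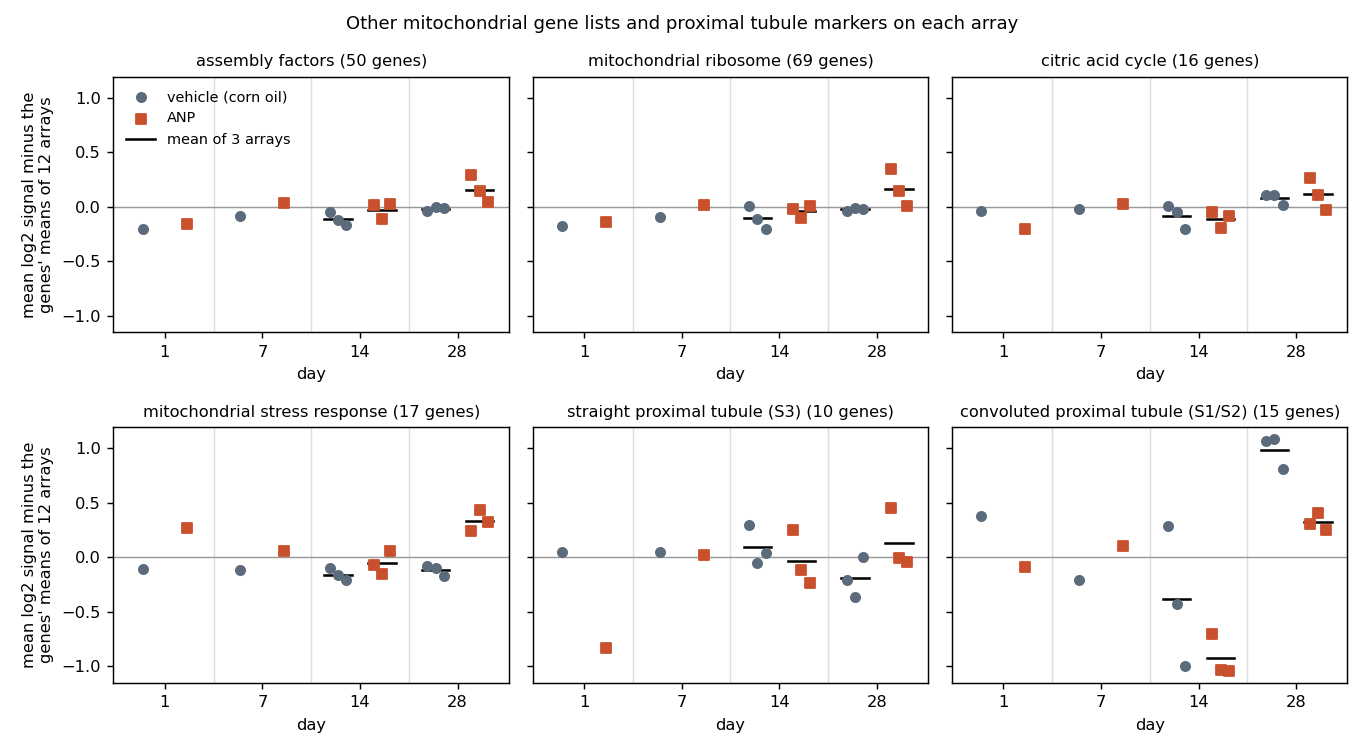
Mean log2 signal of the tested genes of 6 lists, each gene centred on its mean over the 12 arrays of days 14 and 28 (vertical axis), on each array by day and group, with lines for means of 3 arrays. Assembly factors, mitochondrial ribosome and citric acid cycle genes are highest on ANP replicate 1 of day 28, at 0.29, 0.34 and 0.27, and the convoluted proximal tubule markers range from -1.05 to 1.08 between arrays.

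Markers of other cells moved beside these genes. The 15 convoluted proximal tubule markers had a mean of 1.07, 1.08 and 0.81 on the vehicle arrays of day 28 and 0.31, 0.41 and 0.25 on the ANP arrays, and of 0.29, -0.43 and -1.0 on the vehicle arrays of day 14. The 8 glomerular markers ran from 0.86 to 1.08 with vehicle and from -0.10 to 0.32 with ANP at day 28. The thick ascending limb markers ran from -0.33 to 0.05 with vehicle and from -0.01 to 0.01 with ANP at day 28, and Umod (uromodulin), its defining marker, had a ratio of 0.21 (limma adjusted p = 0.166). At day 28 the thick ascending limb markers had a median ratio of 0.25, with 12 of 15 above 0, beside the members' median of 0.16. Cortical markers were thus lower and thick ascending limb markers mostly higher with ANP at day 28. Their part in the members' values was not tested.

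Cox8b is also a gene of brown fat and striated muscle, so markers of both were read beside it. Of 7 tested adipocyte markers, 7 were above 0 in the day 1 pools, with a median of 1.27. Ucp1, the uncoupling protein that defines brown fat, was at -3.20 with vehicle and 1.76 with ANP there, but at -3.39 and -3.69 at day 7, where Cox8b differed most. At day 28 Ucp1 was at -4.58, -4.61 and -3.98 with vehicle and -3.47, -4.72 and -4.36 with ANP, and these overlapped (ratio 0.21 ± 0.31, limma adjusted p = 0.712). The adipocyte hormone gene Adipoq overlapped too, at 0.13, 0.19 and 0.21 with vehicle and 0.55, -0.50 and 0.53 with ANP. Fabp4, a fatty acid-binding protein of fat cells that is also found in endothelium, was at -1.48, -1.91 and -0.89 with vehicle and 0.13, -0.91 and 0.24 with ANP at day 28. ANP replicate 2 lay at the level of vehicle replicate 3, the ratio of 1.25 ± 0.35 did not pass (limma adjusted p = 0.0569), and the average over both days did (limma adjusted p = 0.0473). Cidea, a lipid droplet gene of brown fat and liver, rose 3.11-fold at day 14 and 2.36-fold at day 28. The mean of the 7 adipocyte markers ran from -0.63 to -0.09 with vehicle and from -0.31 to 0.07 with ANP at day 28, and that of 9 striated muscle markers from -0.12 to -0.01 and from -0.23 to 0.33. The muscle genes Ckm, Mb and Acta1 had ratios of 0.04, 0.31 and 0.65 at day 28, and none passed. For Acta1, skeletal muscle actin, the levels were -4.17, -4.08 and -3.98 with vehicle and -3.07, -3.33 and -3.89 with ANP, which did not overlap (limma adjusted p = 0.154). The part of fat or muscle tissue in the Cox8b values was not tested.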

How the data were processed

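Total RNA of 16 samples was measured on one-colour Agilent arrays. The scanner images were read with Agilent Feature Extraction 10.7 (submitters' processing notes). In the deposited scanner files, each spot has a processed signal intensity, background-subtracted by the authors' software, beside median and background signals and spot flags, per the file headers. The values of the authors' table are a ratio, the processed signal over the array's 75th percentile as far as a comparison shows (r of 1 between log2 values, column medians 0.099 to 0.108). The genome build of the array design is not given in the sources used here.

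Here, log2 of the deposited processed intensity minus each array's 75th percentile was used over 61657 probes without controls and outlier spots. There were 0 saturated spots. RefSeq accessions without version (GRCr8 table) named 27460 probes of 15284 genes and left 34197 unnamed. The brightest probe of a gene was kept where every array of 1 or more of the 4 groups of days 14 and 28 had it well above background, or, for the pools, on at least 1 of the 2 arrays. Group means of 12 arrays were fitted with limma 3.58.1 (lmFit, eBayes) in R 4.3.3, and p-values were adjusted over all 11849 genes at a threshold of 0.05. Folds are 2 to the power of the size of the log2 ratio. Pools were compared by ratio alone, with 1.5-fold as the mark.

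Named members were those that passed, the 3 highest and 3 lowest per day, the largest of each complex at day 28, and a panel of core subunits and isoforms, plus up to 4 passing genes per list. Some genes under this rule are not reported here. The members and lists were chosen with earlier results of these data known. Per the labels, each array of days 14 and 28 is 1 animal. Replicate numbers did not pair the samples. On simulated data from 11840 genes, limma recovered 34% of changes of 0.5 and 77% of changes of 1 on the log2 scale for day 14, with 4.31% of calls false, and 22%, 72% and 8.74% for day 28. Alternatives were scaling to the array median, quantile normalization, normexp before it, the authors' value table, other filters and probe rules, fits of 6 arrays, blocks, array weights and leaving out each array. The search of promoter windows was a description only.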

Additional observations from a re-analysis of the deposited data

Results flagged for a closer look

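The median log2 ratio of the 75 subunit genes lay on opposite sides of 0 in the pools, at -0.237 at day 1 and 0.0366 at day 7. Each value comes from 1 array per group, so the difference was not tested, and the sign at day 7 turned after quantile normalization (-0.08).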

How the results depend on the processing

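No member passed at day 14 or in the difference of the ANP effect between the days, and no member was called lower, in any of the alternatives run. The number of members higher at day 28, 1 in the main setting, was 0 after quantile normalization, 2 after scaling to the array median, 2 with the mean of a gene's probes, 2 with the second brightest probe, 2 with the replicate block, 6 with slide as a random block, 6 after normexp and quantile normalization, and 13 with array weights, where ANP replicate 1 had a weight of 0.349. Calls over all genes moved too, with 9.27% of genes higher for the random block, 5.69% for normexp and 12.8% for array weights, beside 8.0%, 8.0% and 17.3% of members. Leaving out single arrays gave 0 to 3, with 0 without any 1 of the vehicle replicates or ANP replicate 2, 1 without ANP replicate 1 and 3 without ANP replicate 3. The number higher on average, 2, was 7 with array weights and 2 to 5 with single arrays left out, with 5 without ANP replicate 3 of day 28. The number higher in vehicle of day 28 than of day 14, 0, was 1 after quantile normalization, 1 after normexp and quantile normalization, 1 with the authors' value table, 1 with the stricter filter, 1 with the mean of probes, 1 with the second brightest probe, 3 with the replicate block, 4 with slide as a random block, 11 with array weights and 0 to 3 with single arrays left out, with 3 without vehicle replicate 1 of day 14. For this vehicle comparison 10.6% of all genes were higher with the random block and 11.1% with array weights, beside 5.33% and 14.7% of members. The cause of these moves was not tested. Same-numbered arrays had correlated deviations of 0.129, 0.0694 and 0.144 at day 14 and -0.0677, -0.0452 and 0.112 at day 28, so the replicate block rests on a number alone. The median at day 7 was -0.0765 after quantile normalization. Atp5if1 at day 28 stayed above 0 in all 18 alternatives (0.29 to 0.47) and did not pass in 6, among them quantile normalization (limma adjusted p = 0.0642) and the fit of 6 arrays (0.0621). Cox8b passed on average in all 23 (0.87 to 1.18). Over all genes, 532 higher and 319 lower at day 28 became 773 and 244 after scaling to the array median. Normexp ran on the median signal, an alternative chosen after seeing the data, since no mean signal column was used here. Naming by array gene names, and slide as a fixed block for the average, were not run. Signal over background limits no member but Cox8c, and for day 28 the slide limits all.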

Other observations

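Other lists give context for the subunit genes. Of 5 tested uncoupling protein genes none passed at day 14, at day 28 or on average, and their median log2 ratio at day 28 was 0.19. Of 12 collecting duct markers 3 were lower at day 28, with a median of -0.50, and of 8 markers of the thin limb and inner medulla none passed there, with a median of 0.61. The medians at day 28 were -0.05 for 8 endothelial markers (1 lower), -0.07 for 12 macrophage and myeloid markers, -0.52 for 10 lymphocyte markers and 0.00 for 7 fibroblast and pericyte markers, with no member of the last 3 lists passing.

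Where members had several probes, the probes did not always point the same way. Of 38 members with more than 1 probe above background, 4 had a probe of the opposite sign at day 1 and 6 at day 28, and the median range of the day 28 log2 ratios between probes of a gene was 0.0795. The 6 were Cox4i1, Cox4i2, Cox6a2, Ndufs1, Ndufv3 and Uqcrb, of which Uqcrb was named after its values were seen. Atp5if1 has a single probe.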
